A study of Mus musculus with 113 samples.

Results

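The change of the transcriptome between day 0 and day 4 of neural induction was examined in wild-type E14 cells, a mouse embryonic stem (ES) cell line. It rests on 6 bulk RNA libraries of wild-type genotype, 3 at day 0 and 3 at day 4, out of 113 samples in the series. These 6 were chosen by their genotype and day labels. The other 6 E14 libraries came from a Fyn knockout line, which the study derived as 1 clone with a deletion in the Fyn gene, 3 at day 0 and 3 at day 4. Expression was given as FPKM, fragments scaled by transcript length and by the mapped fragments of the library, for 23107 genes, of which 11562 reached 1 FPKM in at least 3 of the 6 wild-type libraries and were tested. The labels describe a monolayer and a suspension (SFEB) protocol together and do not say which of them these E14 cells followed, nor whether the replicates were separate cultures, so p-values measure the spread between these libraries, which may be technical. Series of 3 values below are in the order of replicates 1, 2 and 3, changes are differences of mean log2(FPKM + 1) ± SE between day 4 and day 0 (n = 3 and 3), which understate the change of low genes, and adjusted p-values are from limma with Benjamini-Hochberg correction over the 11562 genes.

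Mouse ES cells resemble the naive epiblast of the blastocyst and are held there by leukaemia inhibitory factor (LIF) acting through Stat3 and by a circuit of transcription factors around Oct4, Sox2 and Nanog. When these signals are withdrawn, the cells lose the naive factors first and pass through an epiblast state marked by Fgf5, Otx2 and the de novo DNA methyltransferases. Without signals for mesoderm or endoderm they then turn towards neuroectoderm, in which Sox1 is the earliest widely used marker and Pax6 follows. In bulk RNA a fall can come from fewer cells that express a gene or from less RNA per cell, and these cannot be told apart here.

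By day 4 the wild-type cells had lower levels of most naive ES cell genes, had no call for Sox2, and had higher levels of most epiblast genes in all 3 libraries and of part of the neural progenitor genes, with the highest levels in replicate 1. Among all tested genes 1809 were higher at day 4 (15.6%) and 1229 were lower (10.6%). Of these, 971 rose and 673 fell by at least 1 log2 unit, and 71 rose and 57 fell by at least 3. The values of the 2 days did not overlap for 2973 of the called genes and overlapped for 65. Among all tested genes, called or not, all 3 day 4 values lay above all 3 day 0 values in 25.4% and below them in 16.6%. The median change over all tested genes was 0.0692. Without day 0 replicate 2 the counts were 1105 and 748, without day 0 replicate 3 they were 1294 and 739, and without replicate 1 of both days 1148 and 871. Where leaving out 1 wild-type library ended the call of a gene named below, the highest adjusted p so reached is given beside its values. Counts over the gene lists below are to be read against the 15.6% and 10.6% of all tested genes. In several lists some members were under 1 FPKM in every day 0 library. They passed the filter only through day 4, where they are high, and so favour higher calls, and their number is given beside the count. Members under 1 FPKM in every day 4 library, such as Gsc, En2, Aldh1a3, Sp5 and Pramel6, passed only through day 0. In the same way these favour lower calls, and their number is not given.

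The labels were checked first against marker genes. Of 6 ES cell markers, 5 fell and Sox2 was not called. Pou5f1, which encodes Oct4, was at 637, 691 and 614 FPKM at day 0 and 269, 309 and 399 at day 4, a change of -1.01 ± 0.14 (adjusted p = 0.000675). Its lowest day 0 library stood well above its highest day 4 library, and it remained an abundant transcript. Sox2, a factor shared by ES cells and neural progenitors, read 119, 122 and 124 FPKM at day 0 and 120, 174 and 113 at day 4 (change 0.13 ± 0.22, adjusted p = 0.719). The Hprt gene, which the widely used E14TG2a derivative of this line lacks, lay between 0 and 0.614 FPKM in the 6 libraries. The summed FPKM of the 4 epiblast markers ranged from 14.7 to 25.6 at day 0 and from 170 to 380 at day 4.

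Marker genes of several other cell types were near 0. None of the 3 neural crest markers, Sox10, Snai2 and Tfap2b, reached 1 FPKM in any of the 6 libraries, and the same held for 4 of 7 fibroblast markers, 3 of 5 surface ectoderm and trophectoderm markers and 2 of 4 mesoderm markers. The summed level of the 4 mesoderm markers was 12.4, 1.88 and 1.73 FPKM at day 0 and 1.23, 2.47 and 2.38 at day 4. The surface ectoderm and trophectoderm sum was 3.65, 9.13 and 7.95 FPKM at day 0 and 0.355, 0.361 and 0.534 at day 4, and that of the 5 neuron markers 86.3, 24.4 and 58.9 at day 0 and 99.4, 76.6 and 56.2 at day 4, with 2 of the 4 tested called higher. The endoderm markers moved differently. Their sum over Sox17, Gata4, Gata6 and Foxa2 was 1.24, 4.32 and 1.88 FPKM at day 0, and 3.09, 22.3 and 30 at day 4, so replicates 2 and 3 of day 4 stood above every day 0 library and replicate 1 did not. The fibroblast sum was 0.639 to 1.17 FPKM at day 0 and 10.6, 3.49 and 4.87 at day 4, of which Thy1, which is also expressed by neurons, held 5.7, 2.61 and 3.34 and Col1a2 3.67, 0.403 and 0.641. The call for Thy1 ended without day 4 replicate 1 (adjusted p = 0.087).

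**Figure D1:**
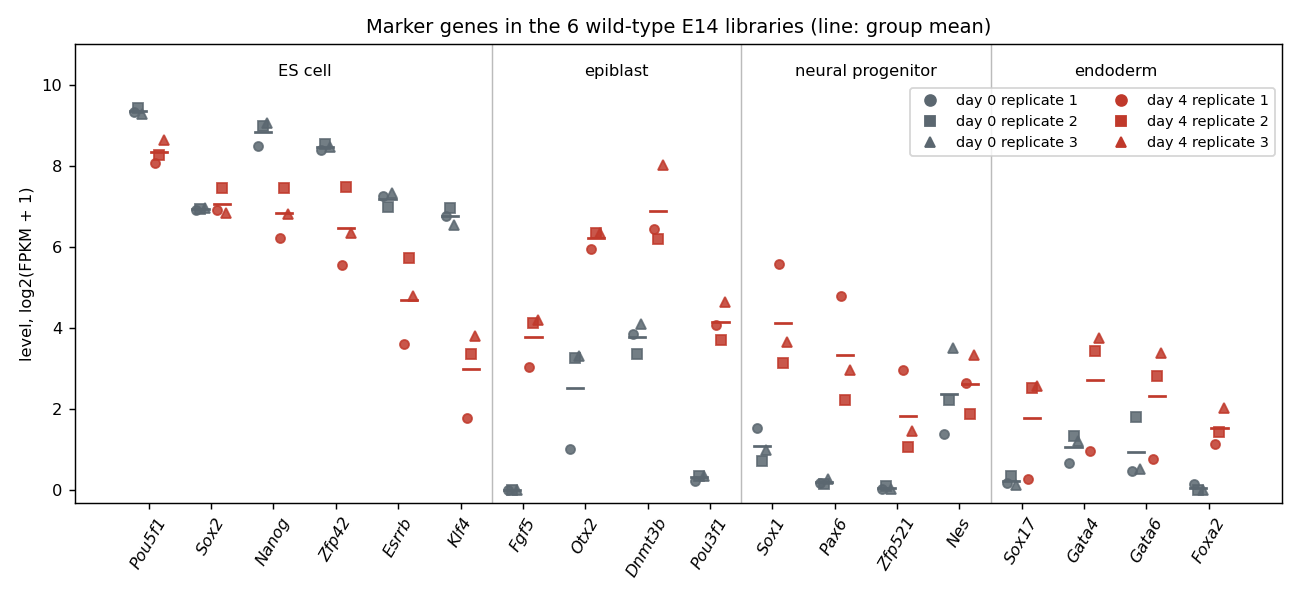
Level of 18 marker genes, log2(FPKM + 1), in each wild-type library at day 0 (grey) and day 4 (red), with the mean of each day as a line. All but 1 of the 6 ES cell markers were lower at day 4 in every library, the 4 epiblast markers were higher in every library, Sox1, Pax6 and Zfp521 were highest in day 4 replicate 1, and Sox17, Gata4 and Gata6 were raised in replicates 2 and 3 but not in replicate 1.

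The genes with the largest rises were of mixed function, and Car4, Car14, Crabp2, Kif1a and Crmp1 passed the filter only through day 4. Car4, a membrane-anchored carbonic anhydrase, had the largest, from 0, 0.273 and 0.101 FPKM to 41.4, 122 and 103 (change 6.19 ± 0.40, adjusted p = 1.24e-05), and a second carbonic anhydrase, Car14, rose by 4.20 ± 0.32. Crabp2, a carrier of retinoic acid in the cytoplasm, rose from 0.677, 0.323 and 0.42 to 165, 34.1 and 45.3 FPKM (5.46 ± 0.71). Genes used in neurons were among them. Kif1a, a kinesin that carries synaptic vesicle precursors along axons, went from 0.405, 0.0694 and 0.0636 to 34, 14.4 and 19.9 FPKM (4.26 ± 0.38), and Crmp1, a mediator of semaphorin signalling in growth cones, went from 0.678, 0.132 and 0.775 to 30.2, 12.9 and 35 (4.06 ± 0.86). Nnat, an imprinted gene expressed in developing brain, read 3.87, 1.63 and 1.52 FPKM at day 0 and 426, 14.3 and 57.6 at day 4, so the day 4 libraries themselves were far apart. Emb, a membrane glycoprotein that accompanies lactate transporters, Trh, the precursor of thyrotropin-releasing hormone, the kinase gene Pim2 and the basement membrane collagen Col4a1 completed the 10, with changes from 4.10 to 4.48.

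Among the 10 largest falls were ES cell factors and enzymes of one-carbon metabolism. Bhmt, Dmgdh and Cdx1 of the 10 passed the filter only through day 0. Tfcp2l1, a naive pluripotency factor downstream of LIF, fell from 115, 136 and 125 FPKM to 2.74, 7.38 and 3.28 (-4.62 ± 0.60, adjusted p = 0.000477). Bhmt, which remethylates homocysteine with betaine, went from 7.2, 61 and 78.8 FPKM to 0.129, 0.223 and 0 (-4.95 ± 0.85), and Dmgdh, which acts on the dimethylglycine that Bhmt makes, went from 15.2, 22 and 28.9 to 0.0342, 0.181 and 0.105 (-4.34 ± 0.81). Fam25c dropped from 412, 842 and 725 to 17.1, 15.5 and 10.8 FPKM (-5.38 ± 0.71). Ly6a, which encodes the surface protein Sca-1, had the largest fall, from 23.3, 213 and 180 FPKM to 0.565, 1.55 and 1.57 (-5.50 ± 1.09). The homeobox genes Crxos1 and Cdx1, the water and glycerol channel Aqp3, the autophagy receptor Calcoco2 and the lysosomal protein Laptm5 were the others, with changes from -4.64 to -5.33. For Ly6a, Bhmt, Calcoco2, Crxos1 and Aqp3, day 0 replicate 1 lay far below the other 2 day 0 libraries while still above day 4. For Ly6a it read 23.3 against 180 and 213 FPKM. The call for Crxos1 ended without day 0 replicate 2 (adjusted p = 0.0555).

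Most naive pluripotency genes fell. Of 25 tested, 20 were lower at day 4 (80%, against 10.6% of all tested genes), none was higher, and the median change was -2.01. Klf4 fell from 108, 124 and 91.6 FPKM to 2.44, 9.31 and 13 (-3.78 ± 0.46, adjusted p = 0.000329), and Tbx3 from 58.2, 59 and 55.2 to 1.41, 6.15 and 3.09 (-3.82 ± 0.40). Esrrb, which holds ES cells in self-renewal, was at 151, 126 and 161 FPKM at day 0 and 11.1, 51.6 and 26.7 at day 4 (-2.49 ± 0.49). Nanog was at 355, 503 and 530 FPKM, then 73.3, 173 and 112 (-2.01 ± 0.29), and Zfp42 (Rex1) at 336, 372 and 351, then 46.2, 177 and 80.5 (-2.01 ± 0.42). In each of Esrrb, Nanog and Zfp42, replicate 2 held the highest day 4 value and replicate 1 the lowest. Dppa5a remained at 338, 1229 and 1089 FPKM from 1691, 2265 and 2388 (-1.44 ± 0.39). The 5 that were not called were Dppa3, Gbx2, Sox15, Zfp281 and Mkrn1, of which Zfp281 was called higher without day 0 replicate 1 (0.76, adjusted p = 0.0136). Without day 0 replicate 2 the list had 13 lower genes, and the call for Dppa5a ended without day 0 replicate 3 (adjusted p = 0.0651). Without day 4 replicate 1 the change of Dppa5a was -0.85.

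Genes that naive and primed cells share had fewer calls. Among 19 tested, 3 were higher (15.8%, against 15.6% of all tested genes), Lin28a and Epcam among them, and 6 were lower (31.6%, against 10.6% of all). The number that fell was 2 without day 0 replicate 3 and 3 without day 4 replicate 1, and the median change was -0.627. Lin28a, an RNA-binding protein that blocks maturation of let-7 microRNAs, rose from 41.8, 7.27 and 7.44 FPKM to 142, 66.8 and 116 (2.85 ± 0.92, adjusted p = 0.0399). Tdgf1 (Cripto), a co-receptor for Nodal, fell from 241, 266 and 359 to 24.6, 91.8 and 160 FPKM (-1.98 ± 0.53), and Zfp296 from 47.7, 67 and 44.8 to 3.48, 13.3 and 11.2 (-2.54 ± 0.40). The calls for Lin28a, Epcam and Tdgf1 ended when 1 library was left out, at adjusted p up to 0.137 without day 0 replicate 2 for Lin28a, and 0.0726 and 0.064 without day 0 replicate 3 for Epcam and Tdgf1. Without day 4 replicate 1 the change of Tdgf1 was -1.22.

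Most formative and primed epiblast genes rose. Of 23 tested, 17 were higher at day 4 (73.9%, against 15.6% of all tested genes), none was lower, and the median change was 2.42. All 4 members under 1 FPKM in every day 0 library, Fgf5, Pou3f1 and Fgf15 among them, are counted among the 17. Fgf5 was listed at 0 in all 3 day 0 libraries and at 7.22, 16.6 and 17.3 FPKM at day 4 (adjusted p = 0.0001). Otx2, a homeobox factor of epiblast and anterior neural tissue, rose from 1.02, 8.57 and 9 to 61.3, 79.7 and 80.8 FPKM (3.69 ± 0.80), and Pou3f1 (Oct6) from 0.184, 0.29 and 0.279 to 16, 12.1 and 23.9 (3.82 ± 0.42). Sox4 rose from 1.81, 1.85 and 0.856 to 49.4, 25.2 and 34 FPKM (3.87 ± 0.38). Fgf15, a secreted factor of epiblast and neural tube, rose from 0.48, 0.13 and 0.201 to 34.7, 13.6 and 13.9 (3.97 ± 0.55). Etv5, a target of FGF signalling that is placed in the same list, was at 97.6, 93.7 and 110 FPKM at day 0 and 25, 93 and 77.5 at day 4 (-0.81 ± 0.37, adjusted p = 0.13). The change of Etv5 was -0.24 without day 4 replicate 1, and it was called without day 4 replicate 2 (-1.16, adjusted p = 0.0422).

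Genes of DNA methylation moved in both directions, 4 of 19 higher (21.1%, against 15.6% of all tested genes) and 6 lower (31.6%, against 10.6%). Dnmt3b rose from 13.5, 9.21 and 16.3 to 85.8, 72.4 and 258 FPKM (3.11 ± 0.50) and Dnmt3a from 3.21, 1.97 and 2.66 to 20.4, 20.5 and 44.7 (2.95 ± 0.50). Both encode de novo methyltransferases, and replicate 3 held the highest day 4 value of each. Tet2, which oxidises 5-methylcytosine, fell from 28.2, 38.1 and 48 to 3.41, 4.55 and 4.73 FPKM (-2.88 ± 0.26, adjusted p = 0.000101), and Uhrf1, which brings the maintenance methyltransferase to replicated DNA, from 136, 175 and 172 to 85.1, 66.9 and 84.2 (-1.02 ± 0.14). Tet3, of the same family as Tet2, and Tdg, a glycosylase that excises oxidised 5-methylcytosine, rose by 1.27 ± 0.23 and 1.29 ± 0.21. Tet1, the maintenance enzyme gene Dnmt1 and the cofactor gene Dnmt3l were not called (-0.63 ± 0.41, -0.26 ± 0.17 and 0.74 ± 1.06).

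Neural progenitor genes rose in part. Of 37 listed, 19 passed the level filter, 9 of which were higher, 2 lower and 8 not called (47.4% higher, against 15.6% of all tested genes), with a median change of 0.959. Of the 19, 6 were under 1 FPKM in every day 0 library and passed the filter only through day 4, which favours higher calls. The sum over the list was 185, 150 and 187 FPKM at day 0 and 589, 137 and 189 at day 4, so it exceeded the day 0 range clearly in replicate 1 alone. Sox1 was at 1.9, 0.662 and 0.986 FPKM at day 0 and 47.2, 7.81 and 11.6 at day 4 (3.04 ± 0.62, adjusted p = 0.00519). Pax6 went from 0.14, 0.121 and 0.214 to 26.8, 3.71 and 6.77 (3.12 ± 0.55), Sox11 from 0.389, 0.0193 and 0.0248 to 43.3, 8.47 and 14.1 (4.03 ± 0.48), and Irx3 from 0.199, 0.115 and 0.148 to 43.4, 4.16 and 2.96 (3.07 ± 0.68). Every day 4 library exceeded every day 0 library for these 4 transcription factor genes, and replicate 1 held the highest value of each by a wide margin. Without day 4 replicate 1 the change of Irx3 was 1.97. Hes1, a repressor downstream of Notch that is also expressed in ES cells, fell from 39.5, 52.2 and 36.3 to 22.9, 21.7 and 18.1 FPKM (-0.98 ± 0.29), a call that ended without day 0 replicate 2 (adjusted p = 0.102). Hes5, the Notch target of neural progenitors, stayed below the filter and read 0, 0 and 0.0518 FPKM at day 0 and 12.4, 0 and 1.54 at day 4. Nes was at 1.61, 3.66 and 10.3 FPKM, then 5.28, 2.68 and 9.14 (0.26 ± 0.58, adjusted p = 0.787), and Vim at 89.7, 26.7 and 52.3, then 77.5, 27.3 and 42.5.

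Regional identity genes were mostly below the filter, with 2 of 17 forebrain and eye field genes and 6 of 23 midbrain and hindbrain genes tested. Otx2 of the first list and Irx3 of the second rose, Irx3 from under 1 FPKM in every day 0 library. En2 and Hoxc4 fell from levels between 1.1 and 4.54 FPKM. Among 16 tested neuronal genes 8 were higher (50%, against 15.6% of all tested genes) and 3 lower (18.8%, against 10.6%), and 4 were higher without day 4 replicate 1 and 5 without day 4 replicate 3 or any 1 day 0 library. Of the 16, 6 were under 1 FPKM in every day 0 library and passed the filter only through day 4. Gap43, a growth cone protein, rose from 0.451, 0.195 and 0.353 to 12.1, 10 and 5.06 FPKM (2.85 ± 0.49). Nefl, a neurofilament gene, fell from 32, 18.1 and 19.4 to 6.45, 1.47 and 3.26 (-2.45 ± 0.43). Dcx, a marker of migrating neuroblasts, did not exceed 0.522 FPKM, and Tubb3 was at 16.5, 10.9 and 33.1 FPKM, then 44.6, 24.9 and 27.4 (0.75 ± 0.52, adjusted p = 0.323). Of 5 tested neural crest genes 4 fell (80%), namely Tfap2a, Ngfr, Foxd3 and Erbb3, and none rose. Foxd3 is also expressed by ES cells. The calls for En2, Hoxc4, Foxd3 and Erbb3 ended when 1 library was left out, at adjusted p up to 0.0523 without day 0 replicate 1, 0.0792 without day 0 replicate 2, and 0.0736 and 0.134 without day 4 replicate 1.

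Signalling pathways that act on this transition changed as follows. The LIF and Stat3 list had 12 of 25 members lower (48%, against 10.6% of all tested genes) and 1 higher (4%, against 15.6%), Socs2, with a median change of -0.854. Klf5 fell from 111, 105 and 94.3 to 12.1, 43.6 and 20.6 FPKM (-2.16 ± 0.34). Stat3 itself read 30.7, 31.3 and 41.2, then 4.27, 10.4 and 11.3 FPKM (-1.96 ± 0.28), and Socs3, its feedback inhibitor, 30.9, 21.5 and 25.9, then 0.661, 1.22 and 3.97 (-3.35 ± 0.34). Pramel6 was at 1.68, 43.7 and 26.4 FPKM at day 0 and was listed at 0 in all 3 day 4 libraries. Klf4, Klf5 and Tfcp2l1 belong to this list and to the naive list, so both counts share genes.

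Receptors and ligands of the FGF, Nodal and BMP pathways moved in both directions. Against 15.6% higher and 10.6% lower among all tested genes, the FGF and ERK list had 6 of 22 higher (27.3%) and 3 lower (13.6%). Of the 22, 5 were under 1 FPKM in every day 0 library, and these include 4 of the 6 higher calls. Dusp4, a phosphatase that dampens ERK, rose from 0.786, 0.571 and 0.403 to 13.6, 25.5 and 13.7 FPKM (3.50 ± 0.41), while Fgf4, the main FGF of ES cells, fell from 39.7, 71.7 and 66.2 to 6.87, 24.6 and 25.3 (-1.74 ± 0.41). In the Nodal and activin list 5 of 19 rose (26.3%), 1 of them under 1 FPKM in every day 0 library, and 4 fell (21.1%). The inhibitor Lefty1 rose from 6.06, 1.26 and 4.18 to 12.8, 179 and 75.5 FPKM (3.72 ± 1.11, with adjusted p = 0.104 without day 0 replicate 2), and Pcsk6, a protease that processes Nodal, fell from 16.3, 24.4 and 37 to 1.65, 4.65 and 4.34 (-2.57 ± 0.32). In the BMP and Id list 4 of 15 rose (26.7%) and 1 fell (6.67%). Id2, an inhibitor of basic helix-loop-helix factors, was at 1.86, 2.97 and 1.56 FPKM, then 82.1, 10.2 and 15.6 (3.02 ± 0.65), and the inhibitory Smad7 at 26.9, 28.7 and 17.5, then 1.39, 4.49 and 4.72 (-2.56 ± 0.35).

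Of the Wnt list 7 of 23 rose (30.4%, against 15.6% of all tested genes) and 5 fell (21.7%, against 10.6%), 3 with the replicate block. The receptor gene Fzd7 rose from 7.42, 2.83 and 2.33 to 68, 61.3 and 53.6 FPKM (3.70 ± 0.46) and the secreted inhibitor Sfrp2 from 4.04, 1.29 and 1.28 to 33.1, 26.5 and 31.1 (3.39 ± 0.34). Sp5 and Axin2, which are targets of Wnt signalling, were among the 5 that fell. Sp5 went from 17.3, 23.8 and 4.44 to 0.357, 0.0244 and 0.131 FPKM (-3.54 ± 1.16, adjusted p = 0.0428). With the replicate number as a block the calls for Sp5 and Axin2 ended (adjusted p = 0.0628 and 0.0592), as they did without day 0 replicate 2 (adjusted p = 0.14 and 0.125). Among 24 tested Notch genes 6 were higher (25%) and 1, Hes1, was lower (4.17%), and 4 of the 6, Dll1 and Dtx4 among them, were under 1 FPKM in every day 0 library. The ligand Dll1 rose from 0, 0.0753 and 0.0161 to 7.63, 1.6 and 5.53 FPKM (2.36 ± 0.41), and the regulator Dtx4 from 0.19, 0.0359 and 0.0369 to 15.5, 3.83 and 10.7 (3.17 ± 0.44). The ligand Jag1 was at 1.92, 0.825 and 1.56, then 13.2, 1.85 and 2.61 FPKM (1.14 ± 0.47, adjusted p = 0.0978, and 0.0283 with the replicate block), with a change of 0.42 without day 4 replicate 1 and a call without day 4 replicate 2 (1.58, adjusted p = 0.0334), and Hey1 stayed below the filter at 0.267 to 1.8 FPKM. Of 11 tested Hedgehog genes 5 rose (45.5%), 2 of them under 1 FPKM in every day 0 library, and none fell. Among the 5 was the signal transducer Smo, from 7.61, 7.46 and 10.3 to 25.7, 20.9 and 26 FPKM (1.42 ± 0.25).

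Genes of retinoic acid handling included some of the largest rises, with 4 of 13 higher (30.8%, against 15.6% of all tested genes) and 1 lower (7.69%, against 10.6%). Of the 4, 3 were under 1 FPKM in every day 0 library, Crabp2 and Cyp26a1 among them. Cyp26a1, which degrades retinoic acid, went from 0, 0.0792 and 0.102 to 19.9, 8.95 and 21.8 FPKM (3.99 ± 0.42, adjusted p = 0.000192). Crabp1 read 16.8, 3.06 and 4.45 FPKM at day 0 and 502, 15.8 and 32 at day 4, with day 0 replicate 1 above day 4 replicate 2. It was not called (3.16 ± 1.17, adjusted p = 0.0682), but it passed with the replicate block (adjusted p = 0.023) and without day 4 replicate 2 (4.14, adjusted p = 0.0324). Its change was 1.68 without day 4 replicate 1. The synthesis enzyme Aldh1a3 fell from 1.02, 1.65 and 2.26 to 0.103, 0 and 0, with adjusted p = 0.0667 without day 0 replicate 3.

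Many targets of Atf4, the transcription factor of the amino acid response, and genes of amino acid synthesis fell. Of 27 tested, 16 were lower (59.3%, against 10.6% of all tested genes), none was higher, 11 were not called, and the median change was -0.959. Ddit4, an inhibitor of mTORC1 signalling that is among the 11, read 4.27, 19.9 and 21.5 FPKM at day 0 and 42.2, 25.9 and 31.2 at day 4 (1.3 ± 0.60, adjusted p = 0.132), so its day 4 values lay above those of day 0, and without day 0 replicate 1 its change was 0.63. Asns, asparagine synthetase, went from 266, 456 and 506 to 63.9, 116 and 67.9 FPKM (-2.29 ± 0.36, adjusted p = 0.00143). Trib3, a pseudokinase induced by amino acid stress, went from 10.5, 19 and 33.9 to 3.3, 2.35 and 3.89 (-2.28 ± 0.37), and Nupr1 from 23.2, 138 and 145 to 6.49, 1.84 and 4.29 (-4.03 ± 0.65). Eif4ebp1, an inhibitor of translation initiation, went from 372, 511 and 583 to 175, 290 and 268 (-1.0 ± 0.20). Atf4 itself read 111, 176 and 205 FPKM at day 0 and 51, 30.4 and 65.5 at day 4 (-1.74 ± 0.29). Day 0 replicate 1 lay at least 1 log2 unit below both other day 0 libraries for 6 of the 27 genes, so the size of these falls was smaller when measured from that library. Without day 0 replicate 3 the list had 10 lower genes.

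The promoters of this list are shown because 16 of its 27 members fell and because Atf4 acts through a short element, the C/EBP-ATF response element. The letters TGATGNAA were searched on both strands in RefSeq promoters of the GRCm38.p6 assembly, the assembly behind the mm10 build, each from 250 bases before to 50 bases after a gene's start. Promoters were found for 23 of the 27 tested members, and 8 of the 23 (34.8%) held the letters. The share was 2.48% of the 8635 tested genes with a promoter and 4.51% of all 27025 genes in the promoter set. The list was compiled from known Atf4 targets, so this share is a property of the list. The letters occurred in 5 of 13 members that fell (38.5%) and in 3 of the 10 that were not called (30%). The stretches around the letters before the gene's start are printed for the members that fell, 5′ to 3′ on the gene's strand, with the matching letters in capitals, in the reverse complement form TTNCATCA where the match was on the other strand.
Asns (chr6:7693210-7693252, minus strand): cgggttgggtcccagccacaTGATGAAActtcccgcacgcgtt
Nupr1 (chr7:126625553-126625600, minus strand): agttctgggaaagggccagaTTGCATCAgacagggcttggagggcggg
Aars (chr8:111033710-111033757, plus strand): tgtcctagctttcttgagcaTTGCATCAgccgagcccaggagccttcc
Pck2 (chr14:55540143-55540190, plus strand): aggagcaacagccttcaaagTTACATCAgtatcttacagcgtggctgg
The match began 23 bases before the start of Asns, 110 before that of Nupr1, 112 before that of Aars and 103 before that of Pck2. Aars, alanyl-tRNA synthetase, was at 116, 168 and 177 FPKM at day 0 and 51.6, 48.4 and 50.6 at day 4 (-1.57 ± 0.16), and Pck2, the mitochondrial phosphoenolpyruvate carboxykinase, at 12.9, 31.8 and 33.1, then 13.2, 6.23 and 7.03 (-1.41 ± 0.44). In Pck2 the day 4 value of replicate 1 lay above its day 0 value, and its call ended with the replicate block (adjusted p = 0.0559) and without day 0 replicate 2 (adjusted p = 0.124).

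Of 24 tested cholesterol synthesis genes 11 rose (45.8%, against 15.6% of all tested genes), 1 of them under 1 FPKM in every day 0 library, 1 fell (4.17%, against 10.6%), Ebp, and 12 were not called, with a median change of 0.703. The number that rose was 6 without any 1 of day 0 replicate 2, day 4 replicate 1 and day 4 replicate 3, and 17 without day 4 replicate 2, in which Cyp51 and Dhcr7 were lowest among the day 4 libraries. The call for Ebp ended at an adjusted p of up to 0.0964, without day 4 replicate 1. Cyp51 went from 10.7, 7.19 and 10.4 to 28.5, 17.8 and 23.7 FPKM (1.22 ± 0.24) and Dhcr7 from 10.8, 7.5 and 10.6 to 23.4, 16.9 and 27 (1.13 ± 0.26). In glycolysis and hypoxia 3 of 29 rose (10.3%, and 5 genes with the replicate block) and 3 fell (10.3%). The glucose transporter Slc2a1 rose from 62.9, 36 and 78 to 220, 363 and 634 FPKM (2.70 ± 0.48), Hk1, the first enzyme of glycolysis, fell from 20.8, 27.5 and 32.3 to 5.64, 9.2 and 9.71 (-1.61 ± 0.42), and Gapdh was at 3603, 4190 and 5385 FPKM, then 4270, 4264 and 5205, with no call (0.07 ± 0.15, and -0.01 under quantile normalization). Of 42 oxidative phosphorylation genes 7 fell (16.7%, against 10.6% of all tested genes) and none rose. The number that fell was 4 without day 0 replicate 2 or day 4 replicate 1 and 3 without day 0 replicate 3, the largest fall being Atp5g1, from 419, 474 and 509 to 193, 241 and 232 FPKM (-1.07 ± 0.14). Among 40 cytosolic ribosomal protein genes, which have many processed pseudogenes, 1 was called, Rps19 (0.41 ± 0.12), and not under median-ratio scaling. The calls for Hk1 and Rps19 ended when 1 library was left out, at adjusted p up to 0.0591 without day 4 replicate 1 and 0.0731 without day 0 replicate 3.

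The cell cycle lists had calls in both directions. In S phase 1 of 30 rose (3.33%, against 15.6% of all tested genes) and 5 fell (16.7%, against 10.6%), and in G2 and M phase 2 of 32 rose (6.25%) and 3 fell (9.38%). Mki67 was at 30.2, 28.1 and 34.5 FPKM, then 40.1, 46.2 and 50.8 (0.55 ± 0.15), and Pcna at 357, 234 and 303, then 296, 240 and 335 (-0.03 ± 0.17). Of 19 regulators of G1, 2 rose (10.5%), 1 of them, Ccnd2, under 1 FPKM in every day 0 library, and 6 fell (31.6%). The number that fell was 2 without day 0 replicate 2 or 3, and 3 without day 4 replicate 2. The D-type cyclin Ccnd3 fell from 102, 92.7 and 101 to 34.2, 46.4 and 35.8 FPKM (-1.33 ± 0.15), and its relative Ccnd2 rose from 0.273, 0.0287 and 0.12 to 12.6, 2.66 and 4.24 (2.49 ± 0.54). The inhibitor Cdkn1a (p21) fell from 68.1, 120 and 82.8 to 13.9, 29.3 and 23.4 (-2.0 ± 0.36). Among 24 p53 targets 3 rose (12.5%) and 7 fell (29.2%, or 4 genes without day 0 replicate 1 and 2 without day 4 replicate 1), Gdf15 and Cdkn1a the most, and Trp53 fell by 0.67 ± 0.20. The calls for Mki67 and Trp53 ended when 1 library was left out, at adjusted p up to 0.0819 without day 0 replicate 2 and 0.094 without day 4 replicate 1. The replication-dependent histones, which lack long poly(A) tails and share sequence, had 1 of 15 higher and 1 lower (6.67% each). The immediate early genes had 2 of 20 higher (10%) and 1 lower (5%), with 1 of the 20 under 1 FPKM in every day 0 library.

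Among endoderm genes 6 of 14 rose (42.9%, against 15.6% of all tested genes) and none fell, with a median change of 1.56. Of the 6, Cubn and Foxa2 were under 1 FPKM in every day 0 library. Cubn, an endocytic receptor of visceral endoderm, read 0.0328, 0.082 and 0.0321 FPKM at day 0 and 1.9, 32.8 and 35.4 at day 4 (3.87 ± 0.85), Col4a1 2.03, 0.865 and 1.48, then 8.69, 71.1 and 128 (4.22 ± 0.89), and Foxa2 0.124, 0 and 0, then 1.2, 1.7 and 3.11 (1.48 ± 0.24). In Cubn and Col4a1 replicates 2 and 3 were far above replicate 1. The list counted 10 higher genes with no filter on low values and 2 with a filter of 5 FPKM. The defining factor Sox17 stayed below the filter, at 0.21, 4.76 and 4.98 FPKM at day 4. Gata4 was at 0.585, 1.55 and 1.32, then 0.961, 9.78 and 12.5 (1.64 ± 0.63, adjusted p = 0.075, and 0.0329 with the replicate block). Gata4 was called without day 4 replicate 1 (2.52, adjusted p = 0.00363), as was Gata6 (2.16, adjusted p = 0.0254, against 1.39 and 0.15 with it). Mesoderm and primitive streak genes were mostly below the filter, and of 4 tested the one called was Gsc, which fell from 1.29, 7.49 and 3.81 to 0.264, 0 and 0.483.

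Matrix and adhesion genes went both ways, with 6 of 23 matrix and integrin genes higher (26.1%, against 15.6% of all tested genes), 1 of them under 1 FPKM in every day 0 library, and 5 lower (21.7%, against 10.6%). Nid1, a basement membrane linker, fell from 37, 111 and 93.7 to 2.8, 10.7 and 8.73 FPKM (-3.29 ± 0.56) and Spp1 (osteopontin) from 233, 365 and 581 to 31.5, 80.9 and 50.4 (-2.84 ± 0.39), while the collagen IV genes Col4a1 and Col4a2 rose (4.22 ± 0.89 and 3.56 ± 0.86) and Col4a5 and Col4a6 were below the filter. Of 20 cadherin and epithelial genes 6 rose (30%), 1 of them under 1 FPKM in every day 0 library, and 2 fell (10%). The number that rose was 3 without day 0 replicate 1, 2 without day 0 replicate 2 or day 4 replicate 2, and 1 without day 4 replicate 3. Cldn6, a tight junction protein, rose from 1.09, 2.17 and 1.92 to 5.76, 44.2 and 98.8 FPKM (3.54 ± 0.93), Cldn4 fell from 20.2, 48.6 and 59.8 to 2.34, 8.84 and 11.1 (-2.44 ± 0.51), and E-cadherin, Cdh1, was at 79.3, 140 and 157, then 25.7, 73.5 and 104 (-1.03 ± 0.41, adjusted p = 0.0831, and 0.00384 with the replicate block). Without day 4 replicate 1 the change of Cdh1 was -0.45, and it was called without day 0 replicate 1 (-1.33, adjusted p = 0.0458) and without day 4 replicate 3 (-1.44, adjusted p = 0.0247). Of 26 axon guidance genes 7 rose (26.9%, or 4 genes without day 0 replicate 2) and 2 fell (7.69%), and 4 of the 26, Efnb2 among them, were under 1 FPKM in every day 0 library. Efnb2 rose from 0.506, 0.645 and 0.565 to 26.2, 10.3 and 13.9 (3.40 ± 0.31), and the receptor Epha4 fell from 30.6, 52.3 and 39.9 to 25.8, 5.05 and 4.63 (-2.08 ± 0.53), with replicate 1 close to the day 0 range. The calls for Cldn6 and Epha4 ended without day 4 replicate 3 and day 0 replicate 2 (adjusted p = 0.0622 and 0.0579).

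Of 23 tested imprinted genes 11 rose (47.8%, against 15.6% of all tested genes) and 3 fell (13%, against 10.6%), with a median change of 0.993. Mest went from 40.4, 19.2 and 51.8 to 249, 71.6 and 147 FPKM (1.98 ± 0.61), Meg3 from 46.8, 52.6 and 76.6 to 119, 120 and 199 (1.29 ± 0.29), and Plagl1 fell from 14.2, 15.2 and 33.6 to 5.58, 0.466 and 1.04 (-2.92 ± 0.83). The calls for Mest and Plagl1 ended without day 0 replicate 2 and day 0 replicate 3 (adjusted p = 0.13 and 0.0864). Several imprinted loci, Gnas among them, hold overlapping or antisense transcripts, which the library kit does not tell apart by strand. Of 10 trophectoderm and surface ectoderm genes 1 was higher (10%) and 3 were lower (30%). Of 7 fibroblast genes 2 were higher and 2 lower (28.6% each), and 2 of the 7, Thy1 among them, were under 1 FPKM in every day 0 library. Of 17 genes of the 2-cell-like and germline list 1, Stk31, was lower (5.88%) and none higher. Of 7 tested Src family kinases and regulators, Fyn rose, from 3.21, 2.74 and 4 to 9.44, 4.54 and 6.76 FPKM (0.84 ± 0.24, adjusted p = 0.0248), and Src and Yes1 fell by 0.83 ± 0.23 and 1.25 ± 0.27 (14.3% higher and 28.6% lower). The calls for Fyn and Stk31 ended without day 0 replicate 2 (adjusted p = 0.0959 and 0.0887) and that for Src without day 0 replicate 3 (adjusted p = 0.0864).

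**Figure D2:**
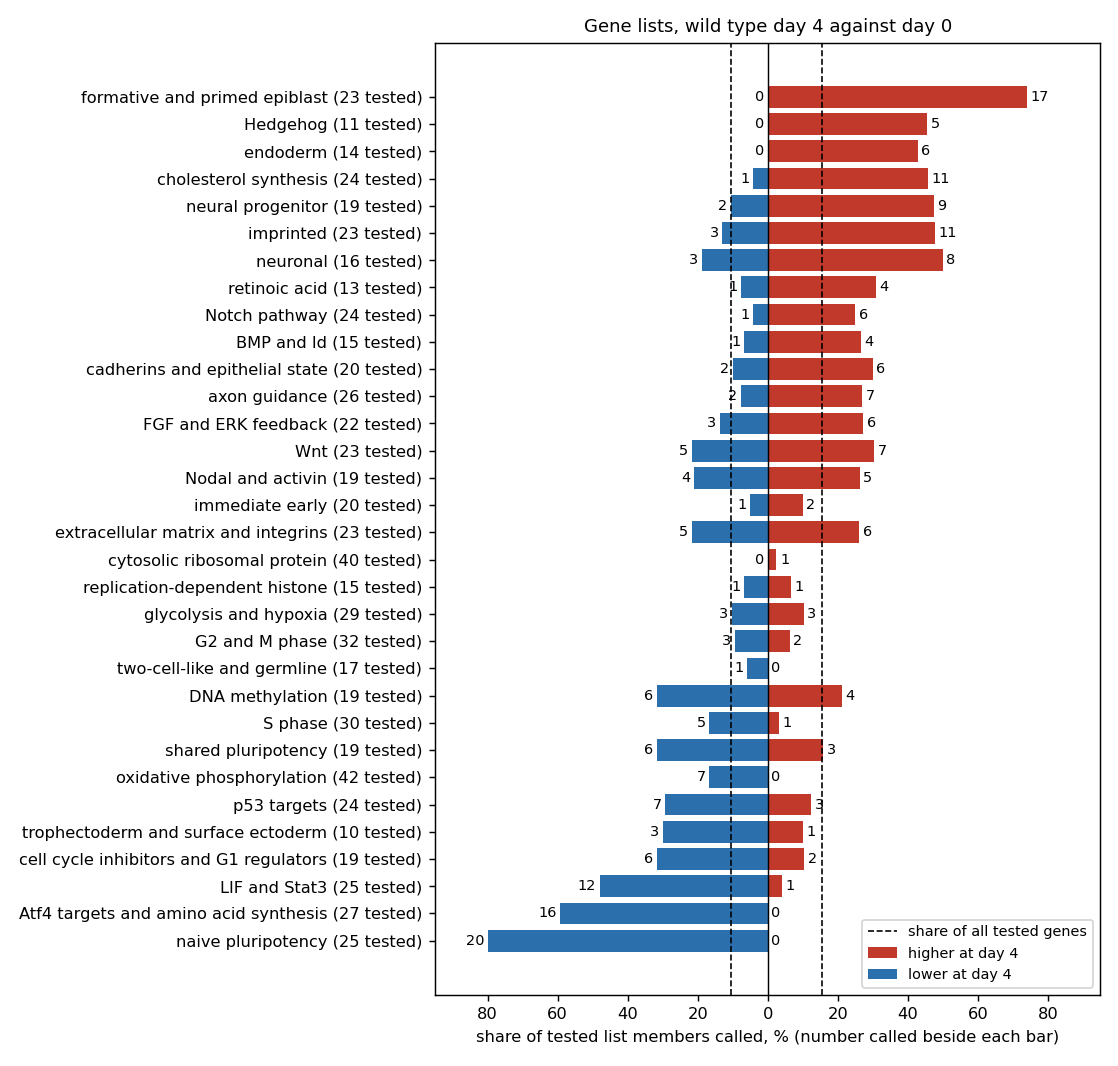
Share of the tested members of each gene list with at least 10 tested genes that were called higher (red) or lower (blue) at day 4 in wild-type E14, with the number called beside each bar and the share of all tested genes as dashed lines (15.6% and 10.6%). The naive pluripotency and Atf4 lists reached furthest to the lower side, followed by the LIF list, and the formative and primed epiblast list furthest to the higher side.

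The 3 wild-type day 4 libraries were less alike than the 3 wild-type day 0 libraries in several respects. The correlation of log2 values over the 11562 genes was 0.941 between replicates 1 and 2, 0.948 between 1 and 3 and 0.969 between 2 and 3 at day 4, against 0.959, 0.962 and 0.981 at day 0. The median SD per gene was 0.238 log2 units at day 4 and 0.21 at day 0, and 2.27% and 1.64% of genes had an SD above 1. The knockout did not share this order, with 0.796% of genes above 1 at day 4 and 3.37% at day 0. Its correlations were 0.965 to 0.975 at day 4 and 0.93 to 0.983 at day 0, and its median SDs were 0.221 and 0.218. In both days of the wild type replicate 1 was the library that stood apart. It lay at least 1 log2 unit above both other day 4 libraries in 181 genes (1.57%) and below both in 335 (2.9%). The same counts were 112 (0.969%) and 99 (0.856%) for replicate 2 and 86 (0.744%) and 18 (0.156%) for replicate 3. At day 0 replicate 1 lay above in 123 genes (1.06%) and below in 296 (2.56%). Among genes called higher, replicate 1 held the highest day 4 value in 899, replicate 3 in 648 and replicate 2 in 262. Replicate 1 also held the lowest day 4 value in 488 of the genes called higher. Among genes called lower, replicate 1 held the lowest in 704, replicate 2 in 335 and replicate 3 in 190. The calls used these same day 4 values, and counts over all tested genes are not given, so these are a description.

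Replicate 1 of day 4 was above the others in many neural progenitor genes and below them in many pluripotency, epithelial and endoderm genes. It lay at least 1 log2 unit above both other libraries in 10 of 19 neural progenitor genes and below in none, and above in 9 and below in 3 of 26 axon guidance genes, but above in 1 of 16 neuronal genes and 2 of 24 Notch genes. It lay below both in 11 of 14 endoderm genes, 12 of 20 cadherin and epithelial genes, 10 of 19 shared pluripotency genes, 7 of 25 naive pluripotency genes, 8 of 25 LIF and Stat3 genes and 9 of 23 matrix genes. Knockout day 4 replicate 1 likewise had the lowest sum of its group over each of these 6 lists, at 233 FPKM against 524 and 741 for endoderm, 459 against 540 and 690 for cadherin and epithelial, 1740 against 1930 and 1750 for shared pluripotency, 1780 against 2680 and 2270 for naive pluripotency, 136 against 248 and 217 for LIF and Stat3, and 361 against 611 and 678 for matrix genes. Wild-type day 0 replicate 1 had the lowest sum of its day over all of them but the shared pluripotency list, so this order was not particular to wild-type day 4. Knockout day 0 replicate 1 had the lowest sum of its group over none of these lists, for example 485 FPKM against 454 and 482 for endoderm. For the neural progenitor list the knockout day 4 sums were 92.7, 94.7 and 156 FPKM, with replicate 1 not the highest. The 5 genes furthest above were Crabp1 (502 against 15.8 and 32 FPKM), Ptn, a heparin-binding growth factor of the developing nervous system (64.1 against 1.88 and 4.15), Rgma, a repulsive guidance molecule (34.5 against 1.25 and 2.06), Zfp703 (13.2 against 0.231 and 0.638) and Irx3. The 5 furthest below were the imprinted H19 (0.851 against 34.3 and 28.5 FPKM), Cubn, Txnip (7.75 against 88 and 92.2), Srgn (2.76 against 37.1 and 53.4) and 2210409E12Rik (0.628 against 14.2 and 21.4). Without replicate 1 the change of 2210409E12Rik was -2.27, against -3.44 with it, and not called (adjusted p = 0.169).

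Replicate 2 held the highest values of several naive and germline genes. It lay at least 1 log2 unit above both others in 7 of 25 naive pluripotency genes, Zfp42 and Klf5 among them, and in 8 of 17 genes of the 2-cell-like and germline list, and in neither list did it lie below both. Dazl, a germ cell RNA-binding protein, was at 16.7 FPKM against 1.98 and 2.54, and Dppa3 (Stella) at 35.5 against 6.1 and 14.6. Day 0 replicate 2 was also the highest of its day, with Dazl at 25.4 FPKM against 5.13 and 16.1, Dppa3 at 111 against 0.783 and 51.7, and the sum over the 2-cell-like and germline list at 252 against 108 and 156, so for these genes the order was not particular to day 4. In knockout day 4 that sum was lowest in replicate 2, at 201 against 358 and 219. Over the naive list knockout day 4 replicate 2 had the highest sum of its group, at 2680 FPKM against 1780 and 2270. The naive order was thus not particular to the wild type. At wild-type day 0 the naive sum of replicate 2 was 5700 FPKM against 4830 and 5830. Among the 5 genes furthest above were also Tuba3b (17.7 against 1.2 and 2.04 FPKM), 1700013H16Rik, Rhox2a and the small RNA Scarna6. Those furthest below were the pseudogene Atp6v0c-ps2, Rnaset2a, Hist1h2ah, the non-coding Rmrp and Nnat, of which several have close copies that share reads. In imprinted genes replicate 2 lay below both others in 5 of 23.

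Replicate 3 had the fewest genes at least 1 log2 unit above or below both others. It was at least 1 log2 unit above both in 7 of 20 cadherin and epithelial genes and in 5 of 20 immediate early genes. Egr1, a gene induced within minutes by growth factors, was at 30.4 FPKM against 2.05 and 1.1, and Ctgf, a matrix protein gene responsive to growth factors, at 23.8 against 2.4 and 4.31. Knockout day 4 replicate 3 was also the highest of its group, with Egr1 at 14.4 FPKM against 4.56 and 1.26, Ctgf at 23.7 against 7.54 and 7.67, and sums of 297 against 190 and 191 over the immediate early list and 690 against 459 and 540 over the cadherin and epithelial list, so this order was not particular to the wild type. Pga5 (48.6 against 3.71 and 7.02) and Rbp4 (12.3 against 1.54 and 1), a carrier of retinol, were also among the 5 furthest above, after Snora81, a small nucleolar RNA at 4589 FPKM in replicate 3 and listed at 0 in both others. The 5 furthest below were Gm5741, Grb10 (4.29 against 151 and 17.5), Hmga2 (2.66 against 15.9 and 11), Fbxo36 and Vax2. Without day 4 replicate 3 neither Pga5 nor Vax2 was called, at changes of 1.45 and -1.17 against 2.45 and -1.86 with it, and the highest adjusted p with any 1 library left out was 0.0915 for Pga5 and 0.0709 for Vax2, both without day 0 replicate 2.

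**Figure D3:**
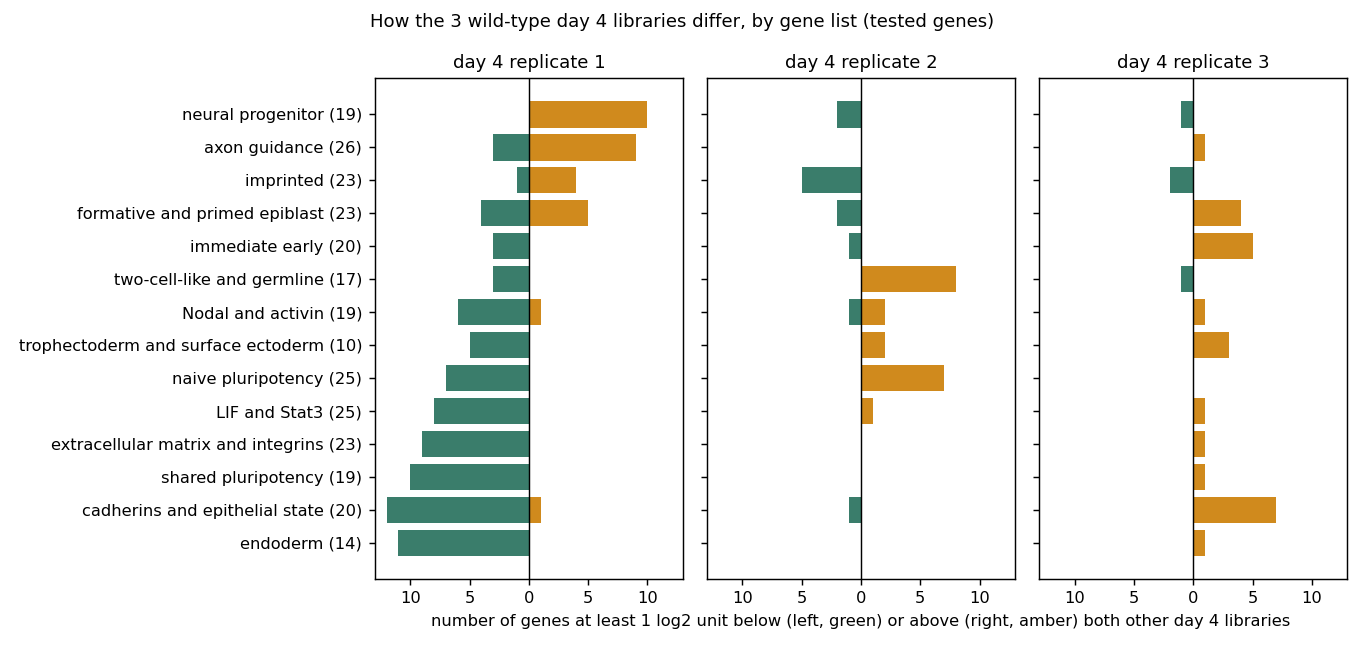
Number of tested genes in each list that lay at least 1 log2 unit below (green, left) or above (amber, right) both other day 4 libraries, one panel per wild-type day 4 replicate, for lists in which any of the counts reached 5. Replicate 1 was above in 10 neural progenitor genes and below in 11 endoderm genes, replicate 2 was above in 7 naive pluripotency genes, and replicate 3 was above in 7 cadherin and epithelial genes.

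Each library was also set against the adherent time course of the same series, 15 population samples between 0 and 216 h of monolayer neural differentiation that were processed and normalised separately, by Spearman's rho over 10844 shared tested genes. The study's methods name R1 ES cells, another line than E14, for the monolayer and SFEB differentiation, so the times are not positions within 1 line. All 3 day 0 libraries had their highest rho with the 20.5 h sample. The day 4 libraries differed. Replicate 1 had its highest rho, 0.937, with the 92.5 h sample, replicate 3, 0.928, with the 68.5 h sample, and replicate 2, 0.911, with the 53.5 h sample. Neighbouring samples were close, at 0.936 for replicate 1 with 80.5 h and 0.927 for replicate 3 with 53.5 h, and the second sample for replicate 2 was that of 20.5 h at 0.905. The nearest sample was the same by Pearson's r and over genes of at least 5 FPKM. With the SFEB population samples in place of the adherent ones the nearest times were 92, 34 and 84 h for day 4 replicates 1, 2 and 3 and 8 h for each day 0 library, so replicate 2 was the earliest and replicate 1 the latest under both references. These are correlations across genes that share libraries and are given as a description.

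**Figure D4:**
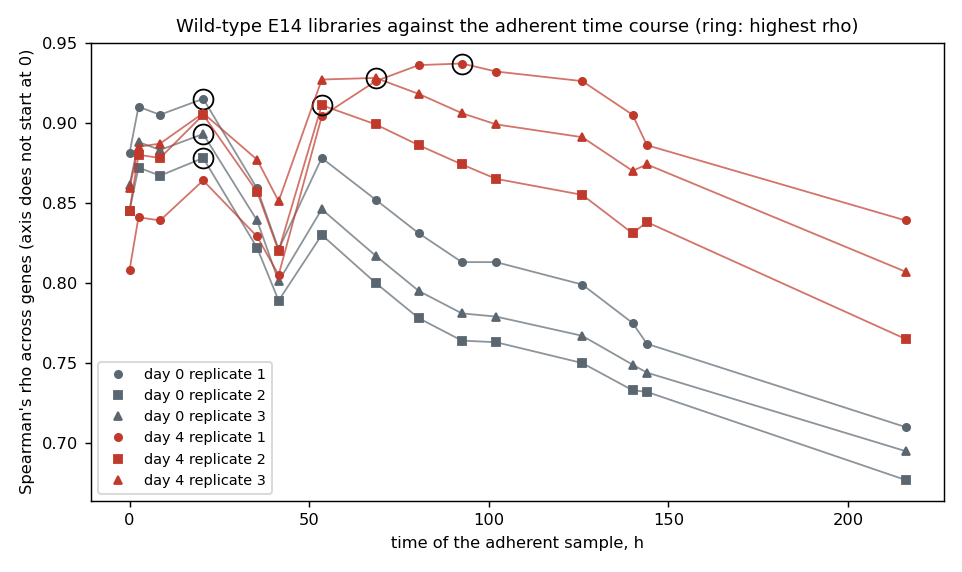
Spearman's rho over 10844 genes between each wild-type E14 library and each adherent sample, by the time of the adherent sample in hours, with the highest value of each library ringed. The day 0 libraries (grey) peak at 20.5 h, and the day 4 libraries (red) peak at 53.5 h for replicate 2, 68.5 h for replicate 3 and 92.5 h for replicate 1.

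A further difference between the libraries lay in the small RNA genes. Small nucleolar, Cajal body and related short RNA genes held 41.7%, 23.1% and 0.786% of the summed FPKM at day 4 in replicates 1, 2 and 3, and 5.01%, 0.637% and 0.358% at day 0. Such genes are shorter than the fragments of a library, and their FPKM is inflated by the division by length. The summed FPKM was 909369 in day 4 replicate 1 and 533773 to 687431 in the other 5 wild-type libraries. Under median-ratio scaling, which does not use that sum, 1566 genes were higher and 1521 lower. The number of genes listed at 0 was 6811 to 7441. The part of the small RNA share in the differences between replicates was not tested.

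The same interval in the Fyn knockout line gave 1310 higher genes (11.3%) and 900 lower genes (7.78%). Fyn itself, a Src family kinase, read 0.598, 0.598 and 1.1 FPKM at day 0 and 1.19, 1.13 and 1.58 at day 4 in the knockout libraries. No gene differed between the genotypes in its change from day 0 to day 4 at an adjusted p below 0.05 by limma's interaction contrast, and 509 genes (4.4%) did at an unadjusted p below 0.05. The naive pluripotency list had 16 of 25 lower in the knockout (median -1.89) and the formative and primed epiblast list 15 of 23 higher (median 2.33). The neural progenitor list had 2 of 19 higher and 3 lower (median 0.625), beside 9 and 2 (median 0.959) in the wild type. The level filter was set on the wild-type libraries, which favours genes expressed there. Of the 19, 6 were under 1 FPKM in every wild-type day 0 library, and 13 reached 1 FPKM in at least 3 of the 6 knockout libraries.

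The next genes were named for their wild-type changes or marker role, so their differences between genotypes are given as a description, and none passed the adjusted threshold (adjusted p = 0.996 for each of Pax6, Sox1, Irx3, Id2 and Ly6a by limma's interaction contrast). Pax6 in the knockout was at 0.0623, 0.0451 and 0.496 FPKM, then 0.228, 0.475 and 2.37, and its change was 2.49 ± 0.78 log2 units larger in the wild type. Sox1 in the knockout was at 0.854, 0.722 and 1.8, then 0.99, 1.27 and 7.08, a difference of 2.36 ± 0.88. For Irx3 the difference was 2.36 ± 0.96 and for Id2 2.71 ± 0.92. Without wild-type day 4 replicate 1 the difference was 1.76 for Pax6, 1.63 for Sox1, 1.26 for Irx3 and 1.84 for Id2. Ly6a, the gene with the largest wild-type fall, was at 1.79, 42.8 and 0.504 FPKM at day 0 and 8.1, 5.21 and 3.06 at day 4 in the knockout, with a difference of -5.60 ± 1.54. Knockout day 0 replicate 3 stood apart from its group, with correlations of 0.946 and 0.93 with the other 2 against 0.983 between them. For Otx2, Cdx1, Tfcp2l1 and Emb its value lay towards the day 4 range. For Etv4 it lay away from that range, at 27.1 FPKM against 1.66 and 2.31 at day 0 and 0.528 to 2.36 at day 4. For Dppa2 it read 66.2 FPKM against 26.6 and 21.7 at day 0 and 13.3 to 27.4 at day 4. Its nearest adherent sample was that of 20.5 h, as for the other knockout day 0 libraries. Without this library the wild-type comparison gave 2003 higher and 1365 lower genes, and the interaction again called no gene.

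**Figure D5:**
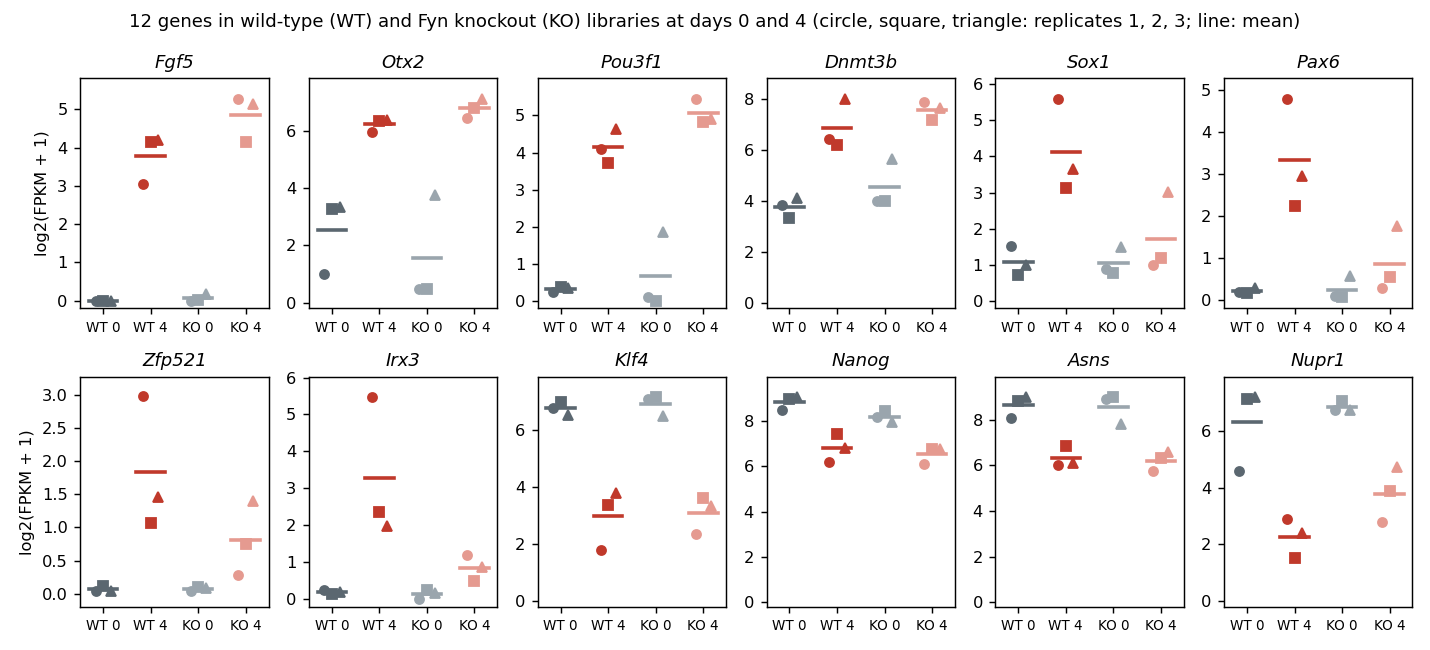
Level of 12 genes, log2(FPKM + 1), in the 3 libraries of each genotype and day, with the mean as a line and replicates 1, 2 and 3 as circle, square and triangle. Fgf5, Otx2, Pou3f1 and Dnmt3b rose and Klf4, Nanog, Asns and Nupr1 fell in both genotypes, while Sox1, Pax6, Zfp521 and Irx3 were highest in wild-type day 4 replicate 1. No interaction with genotype passed the adjusted threshold.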

How the data were processed

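RNA libraries were made with a Nextera XT kit, which does not mark strand. The FPKM values were deposited by the authors as 1 table of all 12 E14 libraries, which their processing notes list with TopHat2 2.0.8b, Cufflinks 2.1.1 and the mm10 build. FPKM holds no read counts, and low values showed no step of 1 read, so the depth per library is unknown and no counting interval is given. Of the reference courses, the FPKM of the adherent samples were compared by rank and, as an alternative, by Pearson's r of log2(FPKM + 1), and the SFEB population values, which the authors deposited on another scale after batch adjustment, by rank only. Values were tested as log2(FPKM + 1) with limma 3.58.1 in R 4.3.3, all 12 libraries in 1 fit with an intensity trend, on genes that reached 1 FPKM in 3 or more of the 6 wild-type libraries, at an adjusted p of 0.05. The fit was checked on simulated data. Deviations from the day means of same-numbered day 0 and day 4 libraries correlated at 0.217, 0.22 and 0.263, and those of other pairs at -0.192 to -0.00593. Deviations of 3 libraries from their mean sum to 0, so these correlations are not independent. They do not settle whether the numbers pair the samples, and the main fit holds no replicate block. The members and the 38 gene lists were chosen with earlier results of these data known. Genes were named by rule: the 10 largest rises and falls among called genes without overlap, up to 5 per list by change and level, the 5 furthest above and below in each day 4 library, the markers, and Fyn, Jag1, Hey1, Sox1 and Mapre1. Mapre1, a microtubule plus-end protein, was not called (0.25 ± 0.15). Other named genes, namely Aars, Atf4, Axin2, Col4a5, Col4a6, Ddit4, Dnmt1, Dnmt3l, Ebp, Epcam, Fgf4, Mkrn1, Pck2, Socs2, Socs3, Sox15, Stat3, Tdg, Tet1, Tet3 and Zfp281, were chosen after their values were seen. Some genes that the rule names are not reported here. Promoters came from RefSeq. Pseudocount, filter, scaling, weights, block and left-out libraries were varied.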

Additional observations from a re-analysis of the deposited data

How the results depend on the processing

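Of 140 named genes with a day 4 change, 119 were called, and 33 of these lost the call under at least 1 alternative, 17 of them only when libraries were left out. A replicate block within the wild type gave 1884 higher and 1318 lower genes. It ended the calls for Axin2, Pck2 and Sp5, added those for Cdh1, Crabp1, Gata4 and Jag1, and changed no other call of a named gene. Genes higher at day 4 numbered 1134 with a filter of 5 FPKM, where 8266 genes were tested. Leaving out 1 library in turn gave 1105 to 2003 higher and 739 to 1365 lower genes and 0 to 4 genes with an interaction, and leaving out replicate 1 of both days, chosen after seeing the data like the knockout library left out, gave 1148 higher and 871 lower genes and 1 interaction. The interaction count was 1 with no filter on low values and 2 with array weights. The median SD at day 4 was 0.272 with a pseudocount of 0.1 FPKM and 0.213 with the filter of 5 FPKM, and the nearest time of day 0 was 8 h against the SFEB samples. Of 1368 counts of list members under the alternatives, 243 moved by over 1.5 times. Changes that were not called turned sign. Gapdh was -0.01 under quantile normalization, median-ratio scaling and without both replicates 1, and -0.06 to 0.23 without 1 library. Pcna was 0.04 under quantile normalization, 0.09 with array weights and without both replicates 1, and -0.19 to 0.11 without 1 library. Without 1 library Dppa3 ranged from -2.27 to 0.72, Gbx2 from -0.16 to 1.01, Mkrn1 from -0.31 to 0.48, Nes from -0.24 to 0.82 and Sox2 from -0.07 to 0.24, and without both replicates 1 Nes was -0.25 and Sox15 0.11. The cause of these moves was not tested. Without read counts the depth behind low values is unknown.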
